A study of Mus musculus with 6 samples.

Results

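The genes examined here encode the phagocyte NADPH oxidase and the proteins that switch it on or keep it running. They are Cybb, Cyba, Ncf1, Ncf4, Rac1, Rac2, Rap1a and Hvcn1, chosen by name, with every probe set that the annotation table assigns to one of these symbols. They make up 8 of 18193 named genes and 16 of 45037 non-control probe sets on the array. All 8 genes passed the filter on low signal and were tested, by 15 of their 16 probe sets. Expression was measured in neutrophils of 3 phd3 null mice and 3 wild-type mice on a C57 background, 1 Affymetrix array per mouse. The cells of both genotypes came from peripheral blood by negative magnetic selection and were cultured at 3% oxygen (hypoxia) for 4 h, after which RNA was extracted. phd3 is the older name of Egln3, a prolyl hydroxylase that uses oxygen to mark hypoxia-inducible factor for degradation. The labels give neither the deleted part of the gene nor the cells that lack it, and cells kept at normal oxygen were not analysed here, so each comparison is between genotypes within hypoxia.

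The oxidase moves electrons from NADPH across a membrane to oxygen and so makes superoxide, the first product of the neutrophil respiratory burst. Its membrane part, flavocytochrome b, joins the catalytic subunit gp91phox (NOX2, from Cybb) to p22phox (from Cyba). On stimulation the cytosolic subunits, among them p47phox (from Ncf1) and p40phox (from Ncf4), move to this membrane part together with a GTP-bound RAC protein. In people, loss of gp91phox, p22phox or p47phox causes chronic granulomatous disease, in which neutrophils ingest microbes but kill them poorly. Since oxygen is a substrate of this enzyme, the burst itself depends on oxygen supply, but the arrays measured messenger RNA and not superoxide.

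The RefSeq promoter table (GRCm38.p6) held 3 of the 8 genes, Cybb, Cyba and Ncf1. These genes were lowest in sample 3 of both genotypes, as described further on. Their windows are shown because only these 3 were available. Each runs from 250 bases before the gene's start to 50 bases after it, and capitals mark the core GAGGAA of a PU.1 site, read on either strand. PU.1 is the myeloid transcription factor encoded by Spi1, known to act at the human CYBB promoter. The Cybb window is chrX:9469275-9469574, the Cyba window chr8:122432891-122433190 and the Ncf1 window chr5:134229576-134229875, all on the minus strand.
Cybb: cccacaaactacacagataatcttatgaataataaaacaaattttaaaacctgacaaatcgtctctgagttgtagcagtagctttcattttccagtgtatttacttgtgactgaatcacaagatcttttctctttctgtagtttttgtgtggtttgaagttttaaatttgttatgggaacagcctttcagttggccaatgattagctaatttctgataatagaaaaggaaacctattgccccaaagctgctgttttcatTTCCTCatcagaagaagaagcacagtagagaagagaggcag
Cyba: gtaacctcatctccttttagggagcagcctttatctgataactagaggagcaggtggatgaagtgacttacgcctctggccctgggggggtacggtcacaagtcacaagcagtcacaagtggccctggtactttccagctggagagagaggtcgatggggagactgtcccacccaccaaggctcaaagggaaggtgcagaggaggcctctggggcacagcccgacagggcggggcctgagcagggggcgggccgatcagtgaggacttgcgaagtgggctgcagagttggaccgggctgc
Ncf1: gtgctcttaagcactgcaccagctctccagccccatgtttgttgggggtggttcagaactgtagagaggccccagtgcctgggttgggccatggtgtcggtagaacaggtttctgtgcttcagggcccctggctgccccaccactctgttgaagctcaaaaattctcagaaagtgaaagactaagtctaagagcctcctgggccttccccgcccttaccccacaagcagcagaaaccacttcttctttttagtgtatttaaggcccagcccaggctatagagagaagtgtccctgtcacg

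The GAGGAA core was present in Cybb, once, as TTCCTC from base 260 of the window, and in neither of the others. This match lies 9 bases past the gene's start, and whether it corresponds to a site in the human promoter was not examined. Of all 32851 promoter windows of this length, 28.3% held it on one strand or the other. Cybb also held CCAAT from base 195 (37.4% of windows) and AGATAA from base 15 (11.2%), and Cyba held AGATAA on the other strand, as TTATCT from base 31. The core of a hypoxia response element, ACGTG or GCGTG on either strand, occurred in 0 of the 3 windows, against 43.8% of all windows. ACGTG on one strand can overlap ACGTG on the other, and such overlaps were counted as 1 window. A motif match describes the letters of these windows and says nothing of binding.

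Array medians of the deposited signal ran from 51.7 to 64.2 in phd3 null and from 49.4 to 60.3 in wild-type samples. Egln3 read 87.2, 29.6 and 73.5 on phd3 null arrays 1 to 3, against 2088, 1733.9 and 327 on wild-type arrays 1 to 3, low in every library labelled phd3 null. Both arrays numbered 3 stood apart. Their median correlation with the remaining arrays was 0.739 for the phd3 null array and 0.788 for the wild-type array, and 0.838 to 0.866 for samples 1 and 2. Bnip3 read 202.3 and 195.7 on phd3 null and wild-type array 3, against 2575.4 to 4817.4 on samples 1 and 2. Hspa1a read 1157.9 and 1175.1 there, against 67.2 to 171.3 on samples 1 and 2. What set sample 3 apart was not tested. In the source labels, samples that carry the same number in both genotypes share a code, and every oxidase result is therefore also given within these pairs. Signals below are MAS5 intensities on a linear scale. Differences are on the log2(signal + 16) scale, phd3 null minus wild type, and their standard errors (SE) come from limma across 10960 genes, with p-values adjusted over them by Benjamini-Hochberg. Levels of different genes are not set against each other, since probe sets differ in brightness.

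The membrane subunits did not differ between the genotypes by more than their spread. In bulk RNA such as this, a different mix of cells in a sample and less of a transcript per cell cannot be told apart. Cybb, by the brightest of its 3 probe sets, read 5424.3, 5525.6 and 1706.9 on phd3 null arrays 1 to 3, against 5352.5, 5750.3 and 1969.9 on wild-type arrays 1 to 3. Samples 1 and 2 of both genotypes lay close together, sample 3 of both was low, and the groups overlapped. The means were 4219 ± 2176 in phd3 null and 4358 ± 2077 in wild-type cells (SD, n = 3 each), a log2 difference of -0.08 (SE 0.58, 95% interval -1.37 to 1.21). The other Cybb probe sets differed by -0.02 (SE 0.57) and 0.16 (SE 0.45), and the 3 probe sets correlated at 0.961 to 0.990 over the 6 arrays. Cyba, measured by 1 probe set, gave 1933.8, 1878.8 and 403.2 in phd3 null cells, against 2348.6, 1253.5 and 610 in wild-type cells. The ranges of the genotypes overlapped over most of their length, with sample 3 again lowest in both. Its means were 1405 ± 868 and 1404 ± 879 in phd3 null and wild type (SD, n = 3 each), a log2 difference of -0.09 (SE 0.66, interval -1.57 to 1.39). Within pairs 1 to 3 Cybb differed by 0.02, -0.06 and -0.20, and Cyba by -0.28, 0.58 and -0.58.

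The cytosolic subunits showed the same absence of a called difference. Ncf1, the gene of the organiser subunit p47phox whose phosphorylation starts assembly, gave 2279, 2226.5 and 324.2 in phd3 null cells, against 2014.6, 1386.4 and 604.8 in wild-type cells. In samples 1 and 2 the phd3 null values were the higher ones of their pairs, by 0.18 and 0.68 on the log2 scale, and in sample 3 the phd3 null value was the lower by 0.87 (pair difference -0.87). The means were 1609.9 ± 1114 in phd3 null and 1335 ± 706 in wild-type cells (SD, n = 3 each), with a log2 difference of -0.0046 (SE 0.73, interval -1.65 to 1.64). The other Ncf1 probe sets differed by 0.05 (SE 0.73) and 0.24 (SE 0.61), positive in pairs 1 and 2 and negative in pair 3 like the first. Ncf4, whose product p40phox binds a phagosomal lipid, gave 1559, 1483.8 and 364 in phd3 null cells, against 1796.4, 1206.8 and 383.9 in wild-type cells. The groups overlapped and the 2 arrays numbered 3 gave nearly the same low value. The means were 1136 ± 669 in phd3 null and 1129 ± 709 in wild-type cells (SD, n = 3 each), a log2 difference of 0.0061 (SE 0.67, interval -1.50 to 1.51) and pair values of -0.20, 0.295 and -0.07.

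The small GTPases varied less between samples. Rac1, the widely expressed RAC, gave 1993.6, 2430.3 and 1201.9 in phd3 null cells, against 2462.9, 2305.3 and 1215.2 in wild-type cells, with a log2 difference of -0.08 (SE 0.41, interval -1.0 to 0.84) and pair values of -0.30, 0.08 and -0.02. Its second probe set, whose suffix marks probes shared with other transcripts, differed by -0.09 (SE 0.32). The third, not tested, was dim, from 5.9 to 47.8 in phd3 null and from 1.5 to 30.5 in wild type. Rac2, the blood-cell RAC on which the burst of mouse neutrophils chiefly depends, gave 667.9, 732.7 and 536.1 in phd3 null cells, against 661.8, 531.1 and 673.5 in wild-type cells. Its low samples carried different numbers in the 2 genotypes, and the means were 646 ± 100.2 and 622 ± 79.05 in phd3 null and wild type (SD, n = 3 each; log2 difference 0.05, SE 0.30, interval -0.63 to 0.72). Its pair values were 0.01, 0.45 and -0.32. The dimmer Rac2 probe set went the other way, with 58.2, 70.9 and 47.2 in phd3 null and 94.9, 60.2 and 98 in wild type (log2 difference -0.41, SE 0.40), and did not pass either. Rap1a encodes a RAS-related GTPase that was copurified with flavocytochrome b. It gave 2755.6, 3471.3 and 2114.4 in phd3 null cells, against 2814.3, 3047.5 and 2375 in wild-type cells, and its groups overlapped. The log2 difference of Rap1a was -0.0033 (SE 0.34, interval -0.76 to 0.75) with pair values of -0.03, 0.19 and -0.17, and -0.08 (SE 0.34) by its other probe set.

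Hvcn1, the gene of the voltage-gated proton channel that carries out charge and acid during the burst, had the largest difference of the 8 and did not pass. It gave 189.8, 125.6 and 112.9 in phd3 null cells, against 175.5, 134.7 and 48.9 in wild-type cells. Samples 1 and 2 lay close together between the genotypes and wild-type sample 3 was low, with pair values of 0.10, -0.09 and 0.99. The means were 143 ± 41.2 in phd3 null and 119.7 ± 64.6 in wild-type cells (SD, n = 3 each), a log2 difference of 0.33 (SE 0.45, interval -0.67 to 1.34). Without wild-type sample 3 it was -0.13.

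**Figure D1:**
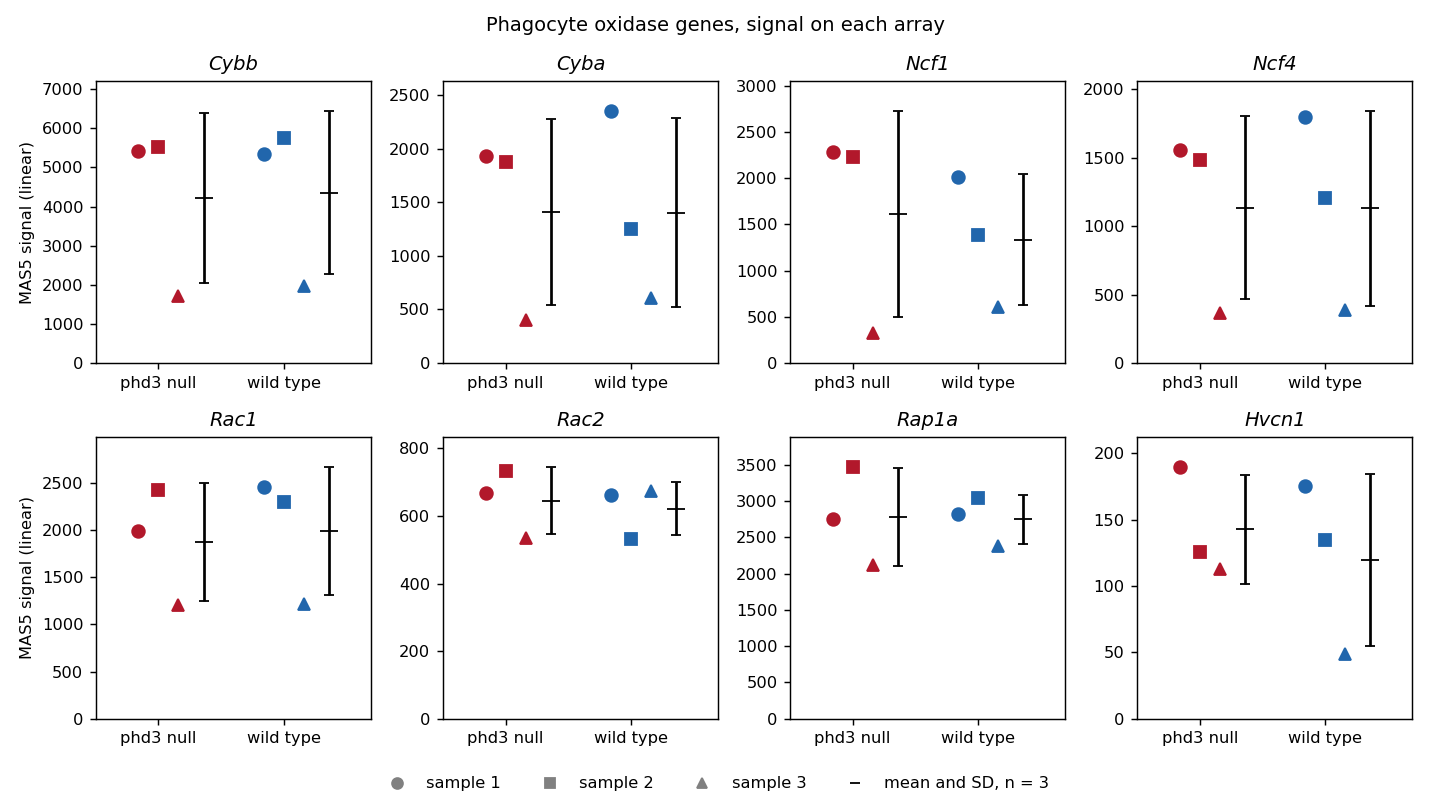
MAS5 signal (linear axis from 0) of the 8 oxidase genes on each array, phd3 null left and wild type right, with circles, squares and triangles for samples 1, 2 and 3 and black bars for the mean and SD (n = 3). The triangles are lowest in both genotypes for every gene shown except Rac2, where wild-type sample 3 (673.5) is the highest of its genotype.

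As a set, 0 of 8 genes and 0 of 15 tested probe sets passed at an adjusted p under 0.05 in limma (adjusted p = 0.9996 for each gene), against 0% of all genes tested. Egln3 itself did not pass in this fit (log2 difference -3.85, SE 0.65, adjusted p = 0.9996 in limma), so its count of 0 says little about the oxidase genes, and their intervals carry more. At an unadjusted p under 0.05 the counts were 0 of 8 oxidase genes and 1.74% of all genes. The groups overlapped for all 8 genes and all 16 probe sets, where groups did not overlap for 6.92% of all genes and 7.2% of all probe sets tested. Of the oxidase genes 0 of 8 kept 1 direction through the 3 pairs, which 25.6% of all genes did. The median size of the difference, regardless of sign, was 0.07 for the 8 genes and 0.27 for all genes tested, with median SEs of 0.51 and 0.44. Of the 8, 3 were higher in phd3 null, against 49.4% of all genes, and with quantile normalization 7 of 8 were higher, against 49.9%. Which way the genes leaned also hung on single arrays. Without phd3 null sample 1, 2 or 3 the number higher in phd3 null was 2, 1 and 8 of 8, with median log2 differences of -0.25, -0.30 and 0.47. Without wild-type sample 1, 2 or 3 it was 8, 6 and 1 of 8, with medians of 0.26, 0.09 and -0.44, and without both arrays numbered 3 it was 6 of 8 with a median of 0.06.

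With the replicate number as a block in limma the estimates stayed where they were and their errors shrank for all 8 genes. The SE became 0.21 for Cybb (95% interval -0.53 to 0.37), 0.24 for Cyba (-0.60 to 0.41), 0.26 for Ncf1 (-0.55 to 0.55) and 0.21 for Ncf4 (-0.44 to 0.46). Rac1 (-0.52 to 0.36), Rac2 (-0.43 to 0.53) and Rap1a (-0.45 to 0.44) had intervals of like width, and that of Hvcn1 was wider (-0.40 to 1.07). Again 0 of 8 passed, with adjusted p from 0.943 for Hvcn1 to 0.9994, against 0.0182% of all genes called with the block, Egln3 among them (adjusted p = 0.0014 in limma). At an unadjusted p under 0.05 the block gave 0 of 8 oxidase genes and 5.62% of all genes. For the other 7 genes, Hvcn1 left aside, these paired intervals hold no difference as large as 1 log2 unit in either direction, and they do not show that the genotypes are alike. Their width rests in part on errors that limma shares across all genes tested. The pair values themselves could spread wider, for Ncf1 from -0.87 to 0.68. Without phd3 null sample 3 and without the block, the Ncf1 difference was 0.908.

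**Figure D2:**
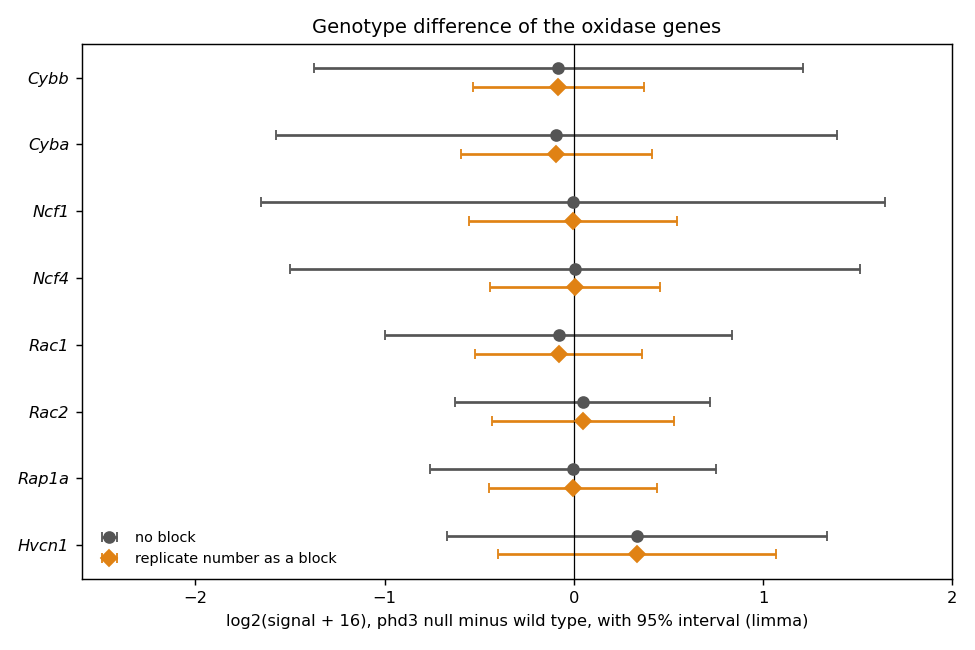
Difference in log2(signal + 16), phd3 null minus wild type, with its 95% interval from limma, for the 8 oxidase genes without a block (grey circles) and with the replicate number as a block (orange diamonds). All intervals include 0, and the paired ones are narrower, for Cybb -0.53 to 0.37 against -1.37 to 1.21.

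The values of these genes varied with the sample number more than with genotype. In sample 3 of both genotypes the subunit genes were several-fold lower than in samples 1 and 2. Ncf1 signal in sample 3 was 6.95-fold lower than the mean of samples 1 and 2 in phd3 null and 2.81-fold lower in wild type. For Cyba the folds were 4.73 in phd3 null and 2.95 in wild type, for Ncf4 4.18 and 3.91, and for Cybb 3.21 and 2.82. By its brightest probe set Rac1 was 1.84-fold lower in phd3 null sample 3 and 1.96-fold lower in wild-type sample 3. Its second probe set fell less, to 1318.9 in phd3 null sample 3 against 1636 and 1841.4 in samples 1 and 2. In wild type the second probe set read 1518.7 in sample 3 against 1580 and 1999.7 in samples 1 and 2. Rap1a was lower by 1.47-fold and 1.23-fold, and Hvcn1 by 1.40-fold and 3.17-fold, in phd3 null and wild type. Rac2 differed, with a sample 3 that was 0.766 of the mean of the other samples in phd3 null and 1.13 times that mean in wild type. These values describe 2 arrays and carry no test, because the arrays were singled out after the data were seen.

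For 7 of the 8 genes, Rac2 being the exception, both arrays numbered 3 were below the other 4, and this held for 16.9% of all genes tested, while 18.5% had both of these arrays above the other 4. Lower by at least 1 log2 unit in both genotypes as well were Cybb, Cyba, Ncf1 and Ncf4, against 5.31% of all genes. The deposited signals had a trimmed mean of 100 on every array (2% cut at each end), so a fall of all genes together could not show. On that scale the median over all genes of sample 3 minus the mean of samples 1 and 2 was 0.12 for phd3 null and 0.08 for wild type. Under quantile normalization, pseudocounts of 1 and 64 and the mean of probe sets, the sample 3 differences of these 4 genes stayed between -2.79 and -1.48 in phd3 null and between -1.94 and -1.23 in wild type. The sample number took up 99.3% of the sum of squares of Cybb on the log2 scale, 98.7% for Ncf4, 92.6% for Cyba and 90.5% for Ncf1, and 11.8% for Rac2, where the median over all genes was 53.1%. Genotype took up 0.3% for Cybb and at most 9.5%, for Hvcn1, against a median of 8.9% over all genes.

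**Figure D3:**
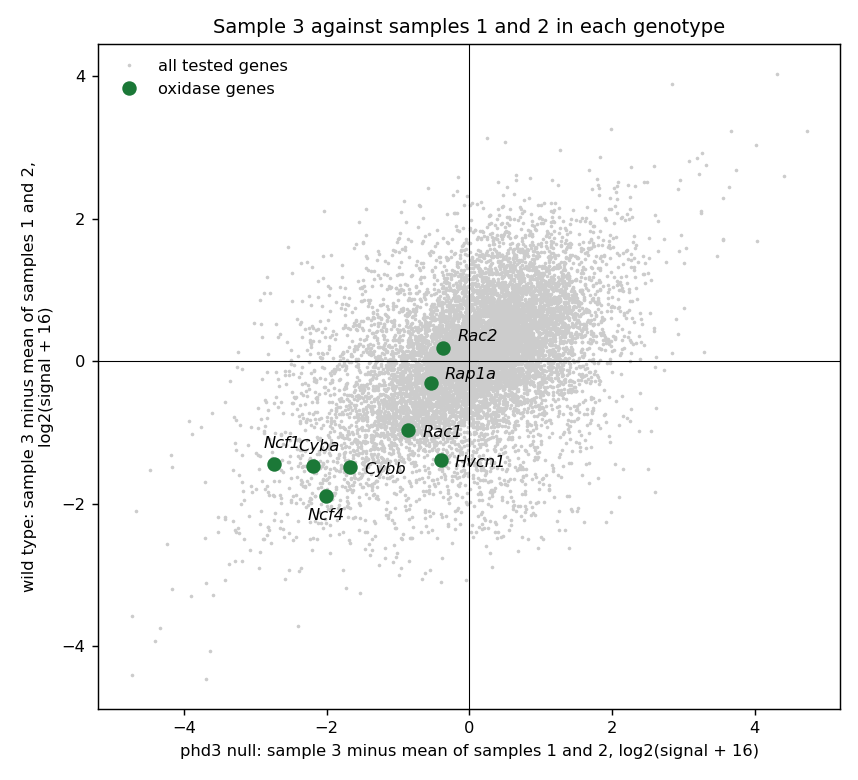
Sample 3 minus the mean of samples 1 and 2 in log2(signal + 16), for phd3 null (horizontal axis) and wild type (vertical axis), with 10960 tested genes in grey and the 8 oxidase genes in green. Ncf1 (-2.74 and -1.44), Cyba, Ncf4 and Cybb lie far into the lower left, while Rac2 (-0.37 and 0.18) lies near the centre.

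Markers of some blood cells, B cells foremost, moved with the sample number too. Single markers other than S100a9 and Csf1r, the brightest of their lists, were named after their values were seen. The neutrophil list, with 9 of 12 genes measured, summed to between 25612.1 and 52016.7 in phd3 null cells and between 43652.6 and 58518.4 in wild-type cells, and S100a8 and S100a9 were bright on every array. Among its members Cxcr2, a chemokine receptor of neutrophils, was 25.6 and 227 in phd3 null and wild-type sample 3, against 558.9 to 978.9 in the other samples. Itgam, the integrin chain CD11b, was 297.7 and 602, against 920.5 to 1506.2. In all, 4 of the 9 neutrophil genes had both arrays numbered 3 below the other 4, and the remaining 5 did not. Of these, Mmp9, a gelatinase gene, was 336.9 and 340.8 in phd3 null and wild-type sample 3, against 254.3 to 445.7 in the other samples, and S100a9 in wild-type sample 3 (20746) was above wild-type sample 2 (19936.2). The B cell list, with 5 of 6 genes measured, summed to 3056.5 in phd3 null sample 3 and 2431.7 in wild-type sample 3, against 196.9 to 519.8 in the other 4 samples. The monocyte and macrophage list (7 of 8 genes) summed to between 11486.4 and 14191.5 in phd3 null and between 9069.4 and 14363 in wild type. Within it Csf1r was 3537.6 and 4048.6 in phd3 null and wild-type sample 3 against 8835.9 to 11088.3 elsewhere, and Adgre1 was 298 and 332.8 against 981.5 to 1197.8. These were the 2 of its 7 measured genes with both arrays numbered 3 below the other 4. Cd74, which B cells also express, was 7105.5 and 3910.4 in sample 3 against 496.7 to 1420.3. The macrophage marker C1qa was at 2.7 to 11 on all arrays, and no marker was listed at 0. The T cell (5 of 6 genes), eosinophil (4 of 5) and platelet (5 of 5) lists reached at most 622.3 in phd3 null and 458 in wild type. NK cell markers (5 of 6 genes) summed to 369.9, 2473.2 and 1930.1 in phd3 null samples 1 to 3, against 1223.2, 5419.8 and 2774.3 in wild-type samples 1 to 3. They were thus lower in phd3 null in 3 of 3 pairs, as the dim eosinophil list also was, while the ranges of the genotypes overlapped. The remaining lists were lower in phd3 null in 1 or 2 of the 3 pairs. Of all genes tested, 25.6% kept 1 direction through the 3 pairs. Erythroid markers (2 of 4) summed to 588.8 to 6390 in phd3 null and 2375.9 to 5606.8 in wild type. The part of these other cells in the oxidase values was not tested.

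**Figure D4:**
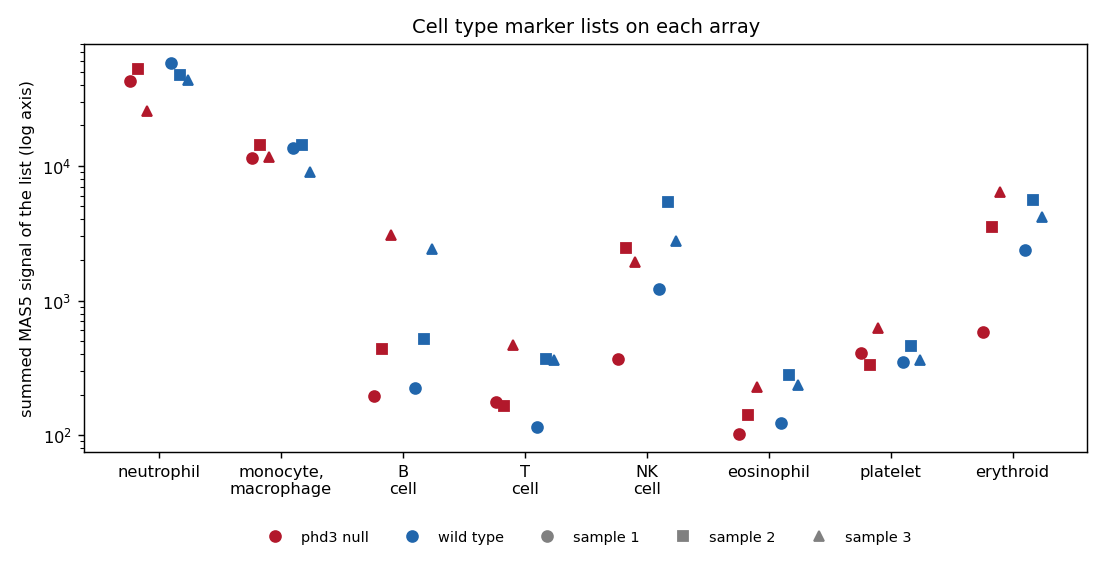
Summed MAS5 signal (log axis) of 8 cell type marker lists on each array, phd3 null in red at the left of each list and wild type in blue at the right, with triangles for sample 3. In the B cell list the triangles (3056.5 in phd3 null, 2431.7 in wild type) stand above all other samples, and in the neutrophil list they are the lowest of their genotype.

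Across the 6 arrays the subunit genes followed each other closely. The pairs among Cybb, Cyba, Ncf1 and Ncf4 correlated at 0.938 to 0.984 in log2 signal, and each of these 4 correlated with Rac1 at 0.913 to 0.972. Rac1 was taken here by its brightest probe set, which correlated with its second at 0.768. Rac2 was the least like the others, at -0.04 with Hvcn1 and 0.29 to 0.55 with the 4 subunit genes. These are descriptions over 6 arrays that share the pattern of sample 3. Of the other 10952 tested genes, 758 correlated with Cybb above 0.9 and 744 with Ncf1. The genes whose pattern was most like that of Cybb were Pofut2 (0.9997), Papola (0.998) and Pdcl3 (0.996), and for Ncf1 they were Tmem164 (0.999), Slc30a9 (0.9985) and Nadk (0.998).

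Genes that act on the oxidase were described as lists, and 0 of their genes passed over all genes in limma, with or without the block. The list of activating proteins holds exchange factors for RAC, phosphoinositide 3-kinases and the tyrosine and serine kinases that lie between receptors and p47phox. Of its 28 genes 24 had a named probe set and 23 were tested, and 18 had the higher value in phd3 null, the median log2 difference being 0.18, against 49.4% of all genes and a median of -0.01. Syk, the kinase below Fc receptors and integrins, averaged 618 ± 188 in phd3 null and 384 ± 137 in wild-type cells (SD, n = 3 each; log2 difference 0.67, SE 0.37, adjusted p = 0.9996 in limma). Pik3cd, a catalytic phosphoinositide 3-kinase subunit of blood cells, stood at 701 ± 296 and 415 ± 91.8 in phd3 null and wild type (SD, n = 3 each; 0.66, SE 0.39). Lower by smallest p were Rapgef1, an exchange factor for RAP1, at -0.24 (SE 0.30), and Vav2, a guanine nucleotide exchange factor, at -0.37 (SE 0.69). In the paired fit 3 of the 23, Syk, Pik3cd and Pik3cg, had an unadjusted p under 0.05, against 5.62% of all genes. The lean of the list varied with the array left out. Without phd3 null sample 2 it was gone, with 11 of 22 higher (median 0.004). It was 15 of 22 (0.07) without wild-type sample 3, 17 of 22 (0.35) without wild-type sample 2 and 19 of 23 (0.24) without wild-type sample 1. Without phd3 null sample 1 it was 17 of 23 (0.28), and without phd3 null sample 3 it was 18 of 22 (0.475). Cybc1, the chaperone gene of flavocytochrome b, was named after its values were seen because it did not share the low sample 3 of its clients. It gave 356.9, 594.8 and 649.4 in phd3 null cells, against 320.7, 389.3 and 509.7 in wild-type cells (log2 difference 0.36, SE 0.35).

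Of the 10 transcription factors listed 9 had a named probe set and were tested. Of these, 2 of 9 were higher in phd3 null, 0 of 9 had an unadjusted p under 0.05 in the paired fit, and the median was -0.10, or 0.04 without wild-type sample 3. Spi1, named after its values were seen as the gene of PU.1, gave 719.6, 527.6 and 337.4 in phd3 null cells, against 486.4, 494.5 and 652.9 in wild-type cells. Its wild-type sample 3 was the highest of that genotype, unlike Cybb, and the log2 difference was -0.09 (SE 0.35). Of the others the members of smallest p were Hoxa9 (0.75, SE 0.85) and Irf8 (0.05, SE 0.39) among the higher, and Hoxa10 (-0.53, SE 0.45) and Nfe2l2 (-0.29, SE 0.38) among the lower. Of 12 genes that handle superoxide and peroxide 9 had a named probe set and 7 were tested, of which 3 had the higher value in phd3 null. The median log2 difference of the 7 was -0.31, -0.03 without wild-type sample 1 and 0.006 with the mean of probe sets. Catalase (Cat), which breaks down hydrogen peroxide, averaged 551 ± 86.9 in phd3 null and 769.9 ± 250.03 in wild-type cells (SD, n = 3 each; log2 difference -0.44, SE 0.33). Aqp9, an aquaporin gene of neutrophils, differed by -0.34 (SE 0.29), and the glutathione peroxidase genes Gpx4 and Gpx1 by 0.13 (SE 0.36) and 0.03 (SE 0.33). In the paired fit 1 of the 7 had an unadjusted p under 0.05, against 5.62% of all genes. It was Sod2, the mitochondrial superoxide dismutase, named after its values were seen, which gave 2543.6, 2274.2 and 235 in phd3 null cells, against 3766.9, 2247 and 538 in wild-type cells. Sample 3 was lowest in both genotypes, and the log2 difference was -0.56 (SE 0.93, adjusted p = 0.9996 in limma without the block and 0.857 with it), with pair values of -0.56, 0.02 and -1.14. Of 9 other NOX family genes 5 had a named probe set and 2 of these passed the filter on low signal, Duox1 (-0.35, SE 0.65) and the DUOX maturation factor gene Duoxa2 (0.65, SE 0.74), both dim, with signals from 8.6 to 103.7 in phd3 null and from 1.7 to 152.4 in wild type. In the paired fit 0 of these 2 had an unadjusted p under 0.05.

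**Figure D5:**
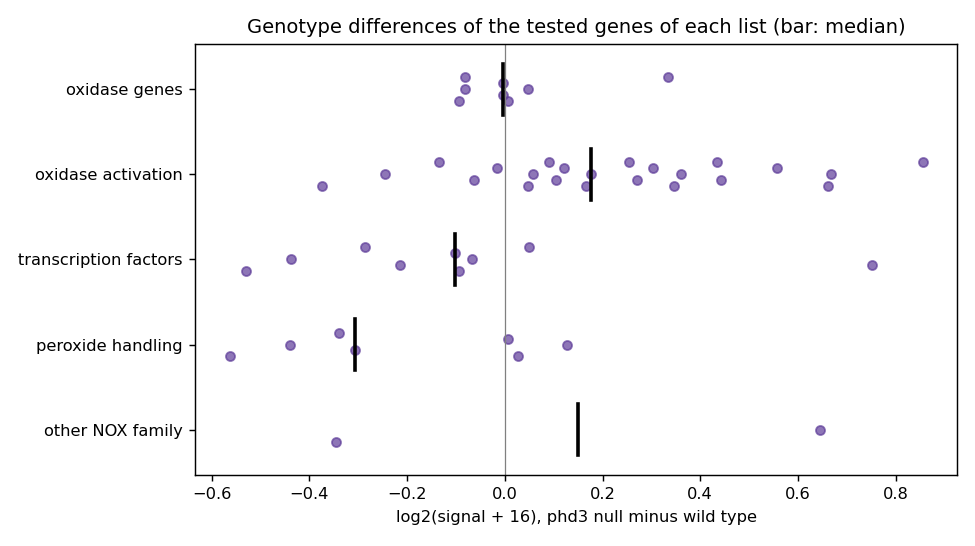
Difference in log2(signal + 16), phd3 null minus wild type, for each tested gene of 5 lists, with a black bar at each list's median. The 8 oxidase genes lie between -0.09 and 0.33 around a median of -0.004, and the activation genes spread from -0.37 to 0.86 with a median of 0.18.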

How the data were processed

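Blood neutrophil RNA from 3 phd3 null and 3 wild-type mice was measured on 6 arrays. The authors deposited linear intensities from MAS5, per the submitters' processing notes. The MAS5 version, detection calls and a genome build are not given in the sources used here. Of 45101 probe sets, 64 controls were left out, 34945 had 1 gene symbol, 932 several and 9160 none. The probe set of highest mean log2(signal + 16) stood for its gene, and genes below the median of probe sets (5.90) were not tested. limma 3.58.1 in R 4.3.3 compared genotypes with a trended prior, two-sided, over 10960 genes or 22519 probe sets. The threshold was an adjusted p of 0.05. Number of arrays limits the precision. Without the block a p-value sets the genotype difference against the spread between mice of the same genotype. With the block it is set against the spread of the pair differences. Same-numbered arrays shared a source code and their deviations correlated at 0.292, 0.151 and 0.474, and they were treated as pairs. Arrays of different number correlated at -0.363 to 0.177, the highest being phd3 null 2 with wild type 1, so the check sets sample 3 apart but does not separate samples 1 and 2. The 16 alternatives covered normalization, pseudocount, filter, probe sets, prior, weights, block and arrays left out. Oxidase genes and lists were chosen with earlier results of these data known. Named genes were the 8 members, Egln3, the 2 genes of smallest p per direction in each list and 3 genes most correlated with Cybb and Ncf1, besides S100a9 and Csf1r as the brightest of their marker lists. Cybc1, Spi1, Pik3cg, Sod2, Bnip3, Hspa1a and the other single markers were named after their values were seen. Promoter windows came from RefSeq.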

Additional observations from a re-analysis of the deposited data

How the results depend on the processing

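The counts of oxidase genes and oxidase probe sets called were 0 in all 16 alternatives that gave them (15 for probe sets, which have no mean of probe sets), and the smallest adjusted p of an oxidase gene was 0.887, for Ncf1. Without the block limma called 0 of all genes, Egln3 at -3.85 included, with 191 at an unadjusted p under 0.05, so the counts of 0 are no sign of stability. The replicate block called 2 genes, the replicate block without replicate 3 called 44, and leaving out 1 array, or both numbered 3, gave 0 to 1. The sign of the small oxidase differences changed with the setting, and the cause was not tested. Quantile normalization turned Cybb to 0.079, Ncf1 to 0.053, Rac1 to 0.021 and Rap1a to 0.136, and a pseudocount of 64 turned Ncf1 to 0.016. The mean of probe sets turned Cybb to 0.02, Ncf1 to 0.097, Rac1 to 0.048 and Rac2 to -0.183. Array weights turned Cybb to 0.048, Cyba to 0.221, Ncf1 to 0.392, Rac1 to 0.003 and Rap1a to 0.095. Without both arrays numbered 3, with the replicate block or with none, Cyba was 0.15, Ncf1 0.427, Rac2 0.233 and Rap1a 0.078. When 1 array was left out the log2 difference ran from -0.576 to 0.476 for Cybb, -0.583 to 0.639 for Cyba, -0.486 to 0.908 for Ncf1, -0.626 to 0.678 for Ncf4, -0.402 to 0.207 for Rac1, -0.059 to 0.173 for Rac2, -0.177 to 0.178 for Rap1a and -0.128 to 0.652 for Hvcn1. Alternatives for the list medians and for sample 3 were chosen after seeing the data. Under quantile normalization Rac2 in sample 3 moved to -0.106 in phd3 null and 0.372 in wild type.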
